A study of Mus musculus with 13 samples.

Results

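Metallothioneins, their regulator Mtf1 and a set of zinc and manganese transporters were followed across the cell types of the mouse liver. The genes were taken by symbol: Mt1, Mt2, Mtf1, the importers Slc39a4, Slc39a5, Slc39a8 and Slc39a14, and the exporters Slc30a1 and Slc30a10. Each of the 9 symbols matched 1 probe set, out of 19537 gene symbols on the array. Expression was measured on 13 arrays with RNA from liver cells of naive C57BL/6 mice aged 6 to 10 weeks. Hepatocytes, Kupffer cells, which are macrophages of the liver, and LSEC, the endothelium of its sinusoids, were freshly sorted, with 3 arrays per population. Hepatic stellate cells (HSC), which store retinoids and can turn into myofibroblasts, were cultured in DMEM with 10% fetal bovine serum, and gave 2 arrays after 1 day, 1 after 7 days and 1 after 14 days. HSC without culture were not analysed here, so cell type and culture cannot be told apart in any comparison with HSC. The labels call the replicates of the sorted populations and of 1-day HSC biological. They do not say whether each replicate came from a separate animal, so p-values measure the spread between these arrays.

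Metallothioneins are small cysteine-rich proteins that bind zinc, copper and cadmium in the cytosol. Free zinc activates the transcription factor MTF-1, which binds metal response elements upstream of metallothionein genes. In the liver these genes also respond to glucocorticoids and to interleukin-6. Transporters of the SLC39 (ZIP) family move zinc, and some of them manganese or iron, into the cytosol, whereas those of the SLC30 (ZnT) family move metal out of it.

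Each marker list summed highest in its own population, but markers of other cells were present too. The 15 hepatocyte markers summed to 163890 to 174780 on hepatocyte arrays, 2931 to 6647 on Kupffer cell arrays, 1727 to 1933 on LSEC arrays and 11294 to 19452 on 1-day HSC arrays. The 1-day HSC arrays thus carried hepatocyte transcripts, and 4 to 5 of the 15 markers lay at or below 224.5, the median of all values in the table. At 7 and 14 days the sums were 1702 and 1645, with 14 and 15 of the 15 markers at or below that median. The 12 HSC markers summed to 33798 to 37575 at 1 day, 48185 at 7 days and 50261 at 14 days, against 2185 to 4511 in freshly sorted cells. The 12 LSEC markers summed to 59833 to 82672 in LSEC, 15030 to 17772 in Kupffer cells and 13825 to 14578 in 1-day HSC, against 3284 to 4491 in hepatocytes. The 12 Kupffer cell markers summed to 121040 to 123270 in Kupffer cells and 9277 to 12186 in 1-day HSC. The 7 measured lymphocyte markers reached 1616 to 2653 in Kupffer cells, against 613 to 751 on all other arrays. On each Kupffer cell array 5 of the 7 lay at or below the median of all values. The exceptions were Cd79b, above LSEC by a log2 difference of 2.59, and Cd3e, above LSEC by 0.22. The part of these other cells in the results was not tested. LSEC replicate 3 stood apart from the other LSEC arrays, reading lowest for 11 of 12 LSEC markers, where 39.4% of all genes tested read lowest on it.

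Hepatocytes had the highest mean of all 9 genes, and for Mt1, Mt2, Slc39a4, Slc39a14, Slc30a1 and Slc30a10 their arrays did not overlap with any other group. The share of all genes with either pattern was not counted, so neither is read as a result about the set. Values below are probe-set intensities on a linear scale as deposited. Differences are on the log2(intensity + 82.7) scale and understate the change of genes near the low end. A gene was called where limma's adjusted p was below 0.05 and the difference was at least 1. Hepatocytes were higher for 5 of 9 genes against Kupffer cells, where 12.0% of all 12081 genes tested were called higher in hepatocytes. They were higher for 6 of 9 against LSEC, with 10.0% of all genes called in that direction, and for 7 of 9 against 1-day HSC, with 10.1%. Mt1, Mt2, Slc39a4, Slc39a14 and Slc30a10 were called above all 3 other populations, 5 of the 9 beside 6.80% of all genes. None of the 9 was called lower in hepatocytes in these comparisons. The median differences over the 9 genes were 1.53, 1.31 and 1.44 against Kupffer cells, LSEC and 1-day HSC, beside medians over all genes of 0.02, -0.10 and -0.08. All 9 passed the filter on low values, but Slc30a10 passed it through hepatocyte arrays alone and so had to differ. Without the filter the 3 counts were the same. In bulk samples fewer cells of a type and less RNA per cell cannot be told apart.

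**Figure D1:**
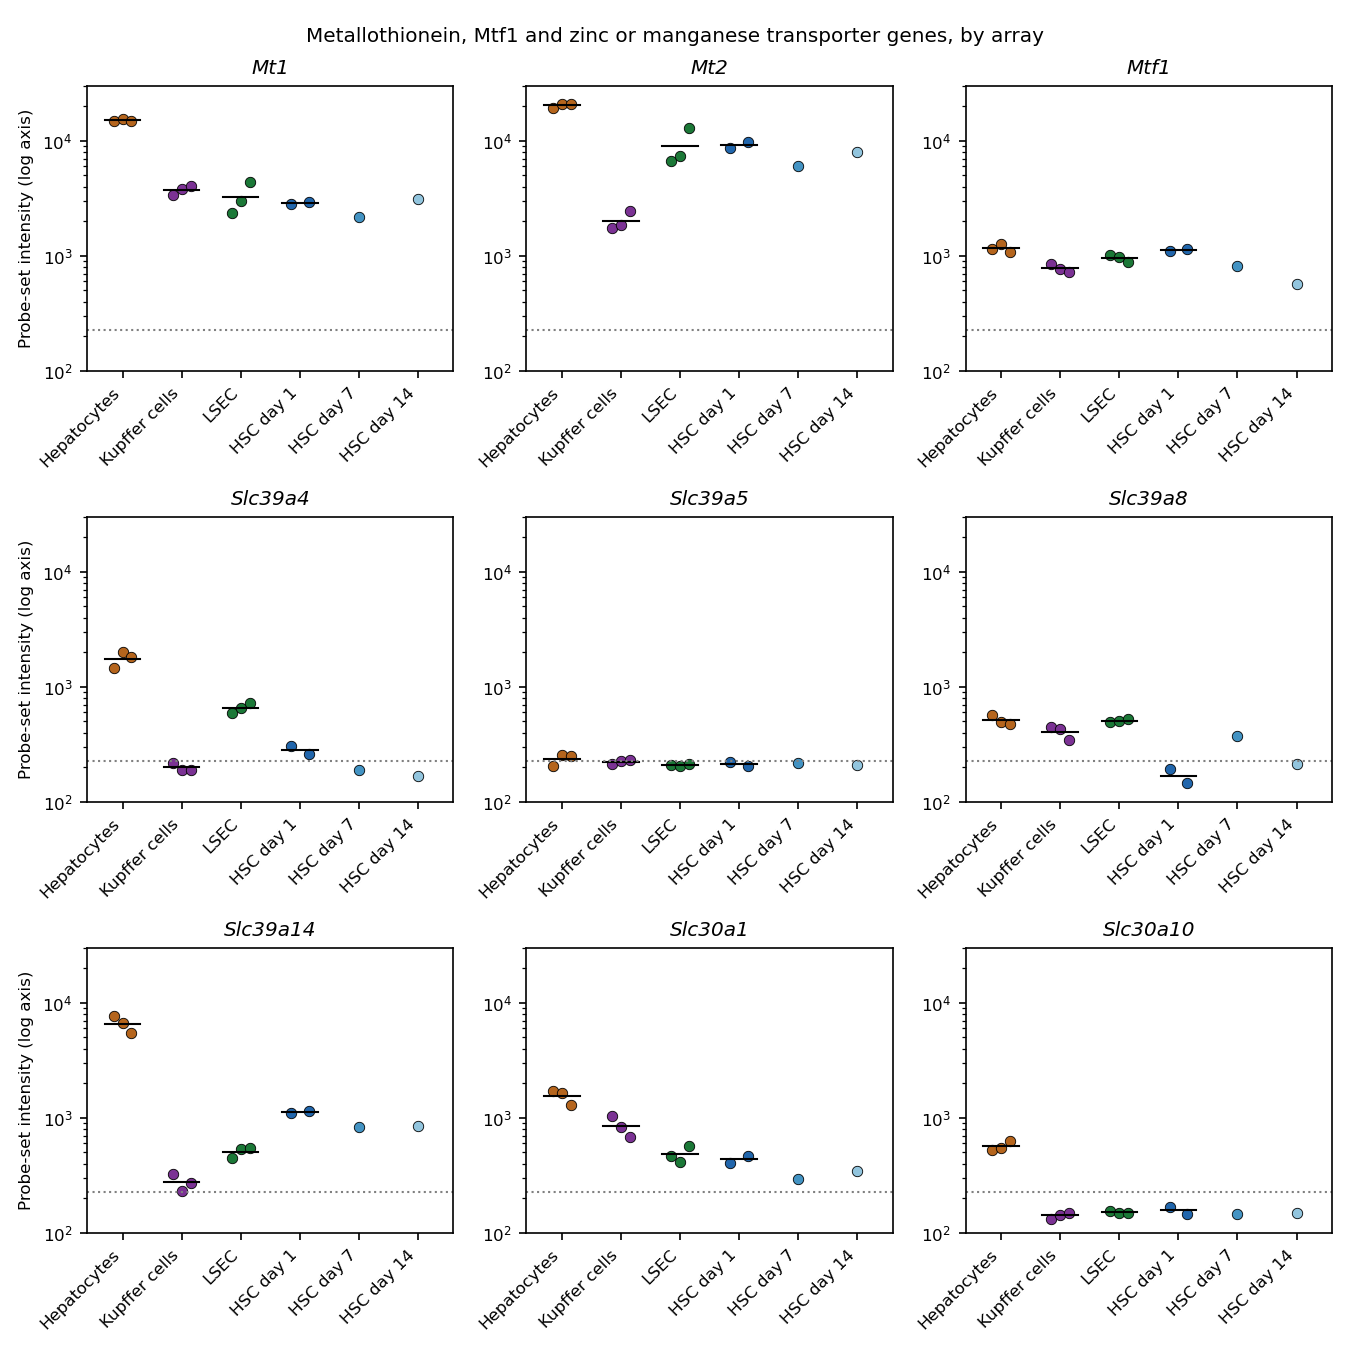
Intensity of the 9 genes on each of the 13 arrays (log axis); points are arrays, bars are group means where a group has over 1 array, and the dotted line is the median of all values, 224.5. Hepatocyte points lie above those of all other groups for Mt1, Mt2, Slc39a4, Slc39a14, Slc30a1 and Slc30a10, while Slc39a5 runs level across groups.

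The 2 widely expressed metallothioneins were abundant in every group, with different patterns. Mt1 read 14773, 15565 and 14920 in hepatocytes, 3395, 3804 and 4064 in Kupffer cells, 2339, 2978 and 4362 in LSEC and 2847 and 2964 in 1-day HSC. The hepatocyte arrays stood above all others, and the LSEC arrays spanned the range of Kupffer cells and 1-day HSC. Mt1 was higher in hepatocytes than in Kupffer cells by 1.99 (SE 0.167, adjusted p = 3.16e-07), than in LSEC by 2.24 and than in 1-day HSC by 2.34. Between the 3 non-parenchymal populations its differences were 0.10 to 0.36 and none passed limma's test (adjusted p = 0.112 to 0.694).

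Mt2 read 19368, 21056 and 21055 in hepatocytes, 1734, 1850 and 2431 in Kupffer cells, 6713, 7356 and 12947 in LSEC and 8723 and 9761 in 1-day HSC. Kupffer cells were the low group here and did not overlap with any other, and were called lower for 2 of the 9 genes against LSEC (Mt2 and Slc39a4) and for 2 against 1-day HSC (Mt2 and Slc39a14). Over all genes 10.3% and 12.9% were called lower in those comparisons. Mt2 was lower in Kupffer cells than in LSEC by a difference of -2.07 (SE 0.203, adjusted p = 1.88e-06) and than in 1-day HSC by one of -2.17 (SE 0.227, adjusted p = 3.21e-06). It was called lower in Kupffer cells than in each of the other populations, as were 2.28% of all genes. Hepatocytes were above Kupffer cells by 3.31, above LSEC by 1.24 and above 1-day HSC by 1.14 (adjusted p = 0.000732), whereas LSEC and 1-day HSC differed by -0.10 (adjusted p = 0.76).

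The unequal behaviour of Mt1 and Mt2 was read within each array as log2 Mt2 minus log2 Mt1, a quantity chosen after the values were seen. It averaged -0.89 ± 0.15 in Kupffer cells and 1.44 ± 0.14 in LSEC (SD, n = 3 each). The difference was -2.33 and is given without a test. Hepatocytes averaged 0.44 ± 0.05 (SD, n = 3), and 1-day HSC 1.64 ± 0.07 (SD, n = 2). The quantity compares change between groups and says nothing about which gene has more transcript, since probe sets differ in their response. The probe sets may share signal between these similar genes, which was not tested.

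LSEC replicate 3 read highest of the LSEC arrays for both Mt1 and Mt2. It also read highest for all 9 measured genes of an oxidative and heavy metal stress list, among them Nqo1 (336, 634 and 1145 in LSEC replicates 1, 2 and 3) and the cystine transporter gene Slc7a11 (880.2, 1209 and 2968). Over all genes tested, 31.9% read highest on that array. Without LSEC replicate 3, the Mt2 difference of Kupffer cells from LSEC was -1.78 and that of hepatocytes from LSEC 1.53, and both were still called. The summed intensity of the stress list was 36509 to 52059 in hepatocytes, 23160 to 25612 in Kupffer cells, 24934 to 42113 in LSEC and 49367 to 52747 in 1-day HSC. Its part in the metallothionein levels was not tested.

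Genes of other signals that act on metallothioneins also differed between the populations. Of 15 acute phase and interleukin-6 response genes, 11 were higher in hepatocytes than in Kupffer cells, 13 than in LSEC and 12 than in 1-day HSC, where 12.0%, 10.0% and 10.1% of all genes were. Saa1, Saa3, Saa4 and Hamp entered these tests through hepatocyte arrays alone and so had to differ. Il6st, which encodes the signalling subunit of the interleukin-6 receptor, was lower in hepatocytes than in LSEC by a difference of -1.36 and than in 1-day HSC by one of -1.58. Many genes of the list are made by hepatocytes in health as well. Lcn2, an iron-siderophore binding protein of the acute phase, read 14555, 14326 and 14120 in hepatocytes, 124, 116 and 127 in Kupffer cells, 517, 535 and 661 in LSEC and 3993 and 1567 in 1-day HSC. Of 9 glucocorticoid response genes, 3 were higher in hepatocytes than in Kupffer cells, 5 than in LSEC and 6 than in 1-day HSC, beside the same shares of all genes. Tat and Pck1 entered through hepatocyte arrays alone. Sgk1 was lower in hepatocytes than in Kupffer cells by a difference of -2.23 and than in LSEC by one of -1.05. In Kupffer cells 4 of these 9 were higher than in LSEC and the same number than in 1-day HSC. Over all genes 9.54% and 11.7% were. In both comparisons the called genes were Dusp1, Tsc22d3, Per1 and Sgk1. Fkbp5 and Klf9 were not called in either, with differences of 0.10 and 0.25 from LSEC. Tsc22d3 read 1227, 1250.4 and 1225 in Kupffer cells, against 380.04, 384 and 403 in LSEC. The part of these genes in the metallothionein levels was not tested.

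**Figure D2:**
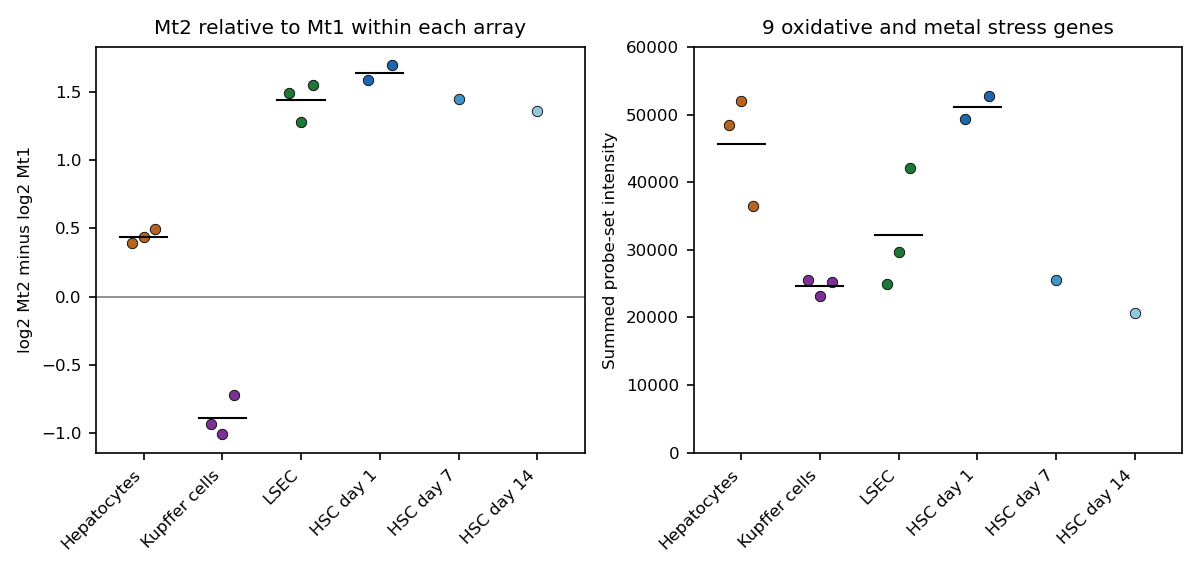
Left, log2 Mt2 minus log2 Mt1 on each array; right, the summed intensity of 9 oxidative and metal stress genes; points are arrays and bars are group means where a group has over 1 array. The 3 Kupffer cell arrays lie between -1.01 and -0.72 on the left, below all other arrays, and LSEC replicate 3 lies highest of the LSEC arrays on the right.

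The sequences upstream of the metallothionein genes carry the element through which zinc acts, so the RefSeq windows of Mt1 and Mt2 are shown, from 250 bases before to 50 after a RefSeq transcript start (GRCm38.p6). For Mt1, and for Slc30a1 further on, that start is not the one of the gene record itself. Both lie on the plus strand, Mt1 at chr8:94178839-94179138 and Mt2 at chr8:94172368-94172667. In gene order Mt4, Mt3, Mt2 and Mt1 follow one another on that chromosome. Capitals mark the core of the metal response element, searched as TGCACNC and TGCGCNC on both strands.
Mt1: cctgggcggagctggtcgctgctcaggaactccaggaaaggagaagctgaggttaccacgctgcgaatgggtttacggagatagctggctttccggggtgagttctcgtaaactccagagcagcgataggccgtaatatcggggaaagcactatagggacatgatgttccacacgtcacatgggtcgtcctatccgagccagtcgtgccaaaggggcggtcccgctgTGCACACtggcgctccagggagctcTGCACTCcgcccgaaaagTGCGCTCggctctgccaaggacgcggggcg
Mt2: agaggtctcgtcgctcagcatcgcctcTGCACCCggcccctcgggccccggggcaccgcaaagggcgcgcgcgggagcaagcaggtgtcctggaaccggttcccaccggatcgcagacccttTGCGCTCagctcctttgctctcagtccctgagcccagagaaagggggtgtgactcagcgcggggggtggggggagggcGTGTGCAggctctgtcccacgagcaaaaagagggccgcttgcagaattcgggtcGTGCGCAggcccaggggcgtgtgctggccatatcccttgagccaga
The Mt1 window held 3 cores and the Mt2 window 4, not all of them upstream of the start used. Relative to that start the Mt1 cores began at -23, 3 and 21, and the Mt2 cores at -223, -128, -50 and 5. At least 3 cores were found in 1.97% and at least 4 in 0.517% of all 32851 windows of the table, and at least 1 in 25.7%. The core of the antioxidant response element, searched as TGACNNNGC on both strands, occurred once in the Mt2 window, as TGACTCAGC. The Mt1 window held none, and Mt1 sequence outside that window was not searched. The same core also occurred once in the Slc30a1 window, once in 1 of 2 Slc39a8 windows and at 2 places in 1 of 2 Slc39a5 windows. Over all windows 12.4% held it. These are matches of letters in a short window and do not show binding.

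Mtf1, which encodes the zinc-sensing factor itself, varied far less than the metallothioneins. It read 1152, 1263 and 1088 in hepatocytes, 845, 773 and 726 in Kupffer cells, 1007, 983 and 888 in LSEC and 1097 and 1134 in 1-day HSC. Kupffer cells were the low group, while hepatocytes and 1-day HSC overlapped. Hepatocytes differed from Kupffer cells by 0.53 (SE 0.084, adjusted p = 0.000101), and Kupffer cells from 1-day HSC by -0.47 (adjusted p = 0.000705). Both had adjusted p below 0.05 without reaching the minimum difference of 1, so no population difference of Mtf1 was called. Its RefSeq window held no core of the metal response element.

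Among the importers, Slc39a14 had the widest difference. It encodes ZIP14, which takes up zinc, manganese and iron not bound to transferrin, and which interleukin-6 induces in hepatocytes. Slc39a14 read 7694, 6698 and 5437 in hepatocytes, 326, 232 and 273 in Kupffer cells, 443, 534 and 545 in LSEC and 1104 and 1149 in 1-day HSC. The 4 populations did not overlap and ran in the order hepatocytes, 1-day HSC, LSEC, Kupffer cells. Hepatocytes were higher than Kupffer cells by 4.21 (SE 0.131, adjusted p = 2.36e-11), than LSEC by 3.49 and than 1-day HSC by 2.45. Kupffer cells were lower than 1-day HSC by a difference of -1.76 (adjusted p = 4.03e-07), and differed from LSEC by -0.72 (adjusted p = 0.00039), short of the minimum. LSEC and 1-day HSC differed in 3 of the 9 genes, with 10.9% of all genes called in either direction. Slc39a14 was lower in LSEC by -1.04 (adjusted p = 0.000105), which fell short of the minimum without LSEC replicate 1, at -0.96, and with the median of all values as the added constant, at -0.89.

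Hepatocyte transcripts on the 1-day HSC arrays accompany that level. The 1-day HSC arrays read 16.7% and 17.4% of the hepatocyte mean for Slc39a14, against a median over the 15 hepatocyte markers of 6.22% and 3.05%, with a marker range of 1.00% to 47.7%. At 7 and 14 days Slc39a14 read 828 and 856, or 12.5% and 12.9% of the hepatocyte mean, while the marker medians were 0.854% and 0.892%. On those arrays 14 and 15 of the 15 hepatocyte markers lay at or below the median of all values. The shares were taken from the intensities as deposited, with nothing subtracted. The part of hepatocyte transcripts in the Slc39a14 values was not tested.

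Slc39a4 encodes ZIP4, known for zinc uptake in the intestine, where its loss in humans causes acrodermatitis enteropathica. It read 1455, 1989 and 1821 in hepatocytes, 217, 189 and 189 in Kupffer cells, 596, 649.6 and 723 in LSEC and 305 and 258 in 1-day HSC. Hepatocytes were highest and LSEC followed, with no overlap, while Kupffer cells lay below the median of all values. Hepatocytes were higher than LSEC by 1.31 (SE 0.113, adjusted p = 5.33e-07), than 1-day HSC by 2.33 and than Kupffer cells by 2.70. Kupffer cells were lower than LSEC by -1.39 (adjusted p = 3.4e-07), though at 198 ± 16.1 (SD, n = 3) their level was near the low end. LSEC were higher than 1-day HSC by 1.02 (adjusted p = 3.82e-05), which did not reach the minimum without LSEC replicate 3 (0.95), without 1-day HSC replicate 2 (0.93), after quantile normalization (0.94) or with the median of all values as the added constant (0.80). In LSEC the 15 hepatocyte markers had medians of 0.889% to 1.01% of the hepatocyte level, where Slc39a4 had 33.9% to 41.2%. These shares come from the intensities as deposited, with nothing subtracted. Kupffer cells, near the low end, still had 10.8% to 12.4% for Slc39a4. The part of hepatocyte transcripts in the LSEC values was not tested.

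Slc39a8 encodes ZIP8, an importer of zinc and manganese that returns manganese from bile to the hepatocyte. It read 572, 494 and 474 in hepatocytes, 442, 425 and 344 in Kupffer cells, 492, 504 and 519 in LSEC and 191 and 144 in 1-day HSC. Hepatocytes and LSEC overlapped and differed by 0.02 (SE 0.103, adjusted p = 0.897). The 1-day HSC arrays stood below all freshly sorted cells, with hepatocytes higher by 1.26 (adjusted p = 1.16e-06) and LSEC by 1.24 (adjusted p = 3.32e-06). Both fell short of the minimum, at 0.91 and 0.90, with the median of all values as the added constant. Kupffer cells differed from 1-day HSC by 0.96 (SE 0.116, adjusted p = 1.13e-05), just short of the minimum, and passed it at 1.05 without Kupffer cell replicate 3 and at 1.09 without 1-day HSC replicate 1.

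Slc39a5, whose product ZIP5 sits on the blood-facing side of enterocytes and on pancreatic acinar cells, did not separate the groups. It read between 203 and 254 on all 13 arrays, close to the median of all values, and groups next to each other in the order of means overlapped throughout. Its population differences were -0.03 to 0.13, with limma's adjusted p = 0.145 to 0.803. No detection calls came with the values, so whether the probe set read any transcript is not known.

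**Figure D3:**
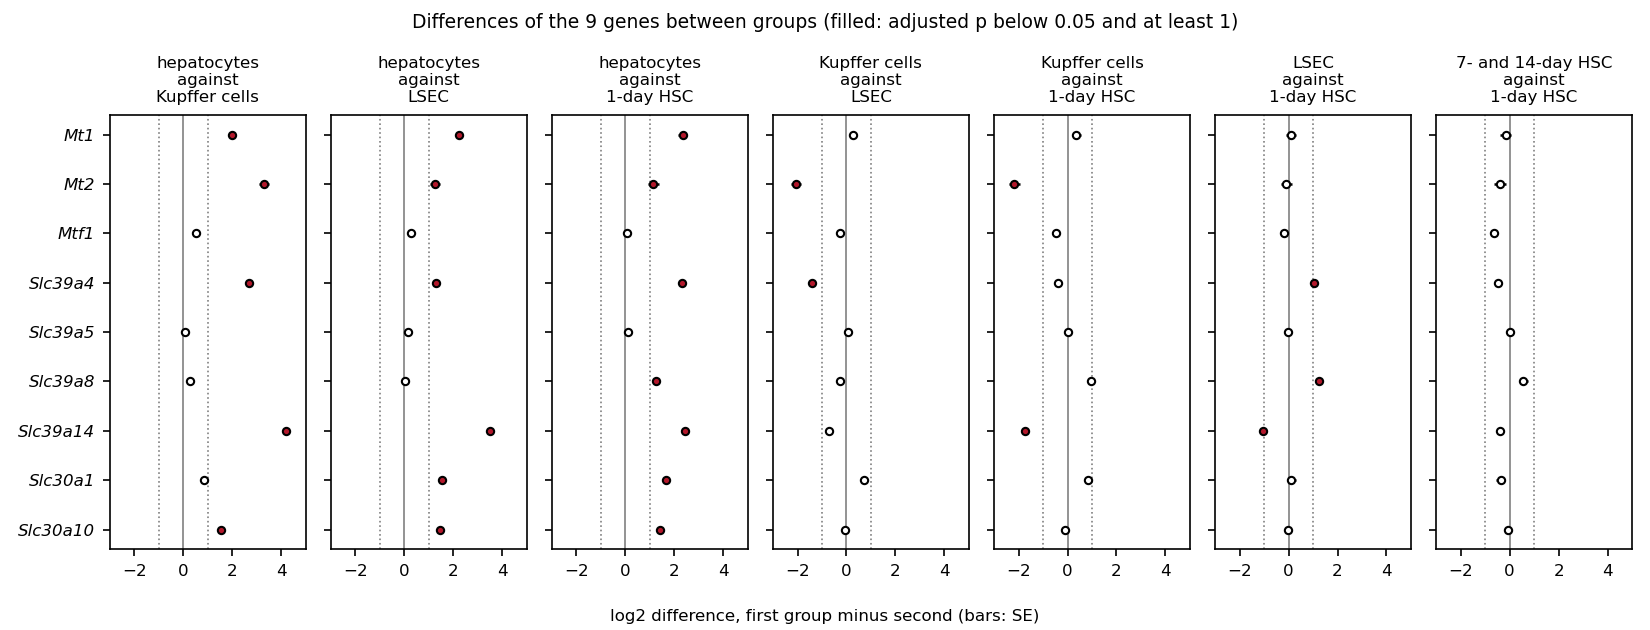
log2 difference of each gene in 7 comparisons, the group named on top minus the group named below it; bars are SE, often smaller than the point, dotted lines mark differences of 1 and -1, and filled points are called. The points farthest to the right are Slc39a14, at 4.21 against Kupffer cells and 3.49 against LSEC.

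The exporters were highest in hepatocytes as well. Slc30a1 encodes ZnT1, the zinc exporter of the plasma membrane and a known MTF-1 target. It read 1724, 1648 and 1290 in hepatocytes, 1033, 824 and 674 in Kupffer cells, 461, 416 and 569 in LSEC and 407 and 462 in 1-day HSC. Hepatocytes and Kupffer cells formed separate upper levels, while LSEC and 1-day HSC overlapped. Hepatocytes were higher than LSEC by 1.53 (SE 0.151, adjusted p = 1.7e-06) and than 1-day HSC by 1.65, but differed from Kupffer cells by 0.83 (adjusted p = 0.000328), below the minimum. Kupffer cells differed from LSEC by 0.71 (adjusted p = 0.00129) and from 1-day HSC by 0.82 (adjusted p = 0.000909), also below it. Kupffer cells thus held the second-highest mean of Slc30a1 and the lowest mean of Mt2 among all groups. Their mean of Mt1 was also second-highest, but this rank was not resolved. For Mt1 their arrays overlapped with those of LSEC, with a difference of 0.26 (limma, adjusted p = 0.205).

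Slc30a10 encodes ZnT10, a manganese exporter of hepatocytes and enterocytes, whose loss in humans leads to manganese overload. It read 522, 545 and 629 in hepatocytes, 132, 143 and 148 in Kupffer cells, 155, 148 and 149.9 in LSEC and 168 and 146 in 1-day HSC. Only hepatocyte arrays were above the median of all values, so Slc30a10 passed the filter through them alone and had to differ. The differences of hepatocytes were 1.53 from Kupffer cells, 1.47 from LSEC and 1.44 from 1-day HSC. They understate a fold because the other groups sat near the low end.

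The windows of both exporters are shown because they hold more than 1 core of the same element. Slc30a1 lies at chr1:191906531-191906830 and Slc30a10 at chr1:185454598-185454897, both on the plus strand of GRCm38.p6 and taken from RefSeq, with capitals as above.
Slc30a1: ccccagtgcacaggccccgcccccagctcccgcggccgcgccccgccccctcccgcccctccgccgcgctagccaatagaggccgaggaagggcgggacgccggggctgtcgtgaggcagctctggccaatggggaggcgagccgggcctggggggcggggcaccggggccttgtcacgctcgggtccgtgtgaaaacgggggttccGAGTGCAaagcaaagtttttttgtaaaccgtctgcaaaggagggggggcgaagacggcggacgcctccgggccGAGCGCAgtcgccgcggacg
Slc30a10: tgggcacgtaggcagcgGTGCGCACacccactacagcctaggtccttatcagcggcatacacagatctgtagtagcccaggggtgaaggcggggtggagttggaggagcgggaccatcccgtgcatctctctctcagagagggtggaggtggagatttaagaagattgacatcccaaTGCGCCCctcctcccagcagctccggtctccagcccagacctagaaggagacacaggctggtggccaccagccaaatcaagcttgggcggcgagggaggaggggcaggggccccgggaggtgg
The Slc30a1 window held 2 cores, both on the minus strand, and 7.11% of all windows held at least 2. They began at -43 and 31 relative to the start used. The Slc30a10 window held 3, of which 2 overlap on opposite strands. Slc39a5, which was level across groups, had 1 core in 1 of its 2 windows, as did Slc39a8. In all, 7 of the 9 genes matched the promoter table.

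In culture none of the 9 genes was called, against 9.79% of the 12368 genes tested. The limma fit set the 7-day and 14-day arrays together against the 2 arrays of 1 day. Each longer time had 1 array, and the spread came from all groups. With limma, 4 of the 9 had an unadjusted p below 0.05 and 3 an adjusted p below 0.05. The median difference of the 9 was -0.37, beside -0.04 over all genes.

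Mtf1 had the clearest difference over time, reading 1097 and 1134 at 1 day, 814 at 7 days and 564 at 14 days. The 2 longer cultures lay below both 1-day arrays, by a mean difference of -0.65 (SE 0.138, adjusted p = 0.00197). Slc39a4 read 305 and 258 at 1 day, 191 at 7 days and 166 at 14 days (difference -0.48, adjusted p = 0.0127), the last 2 below the median of all values. Slc39a8 read 191 and 144 at 1 day, 373 at 7 days and 212 at 14 days (difference 0.56, adjusted p = 0.0215), so that the 7-day array stood apart and the 14-day array lay just above both 1-day arrays. These 3 differences did not reach the minimum of 1. On the same arrays the LSEC markers summed to 13825 to 14578 at 1 day, 2410 at 7 days and 3027 at 14 days, and 9 of 12 were called lower in the longer cultures. Of the 15 hepatocyte markers 10 were called lower, beside 4.27% of all genes. Hepatocytes and LSEC are the groups with the highest Slc39a4, and the part of their transcripts in its values over time was not tested.

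No metallothionein was called over time. Mt1 read 2847 and 2964 at 1 day, 2184 at 7 days and 3094 at 14 days, with the 14-day array above and the 7-day array below those of 1 day (difference -0.16, adjusted p = 0.62). Mt2 read 8723 and 9761 at 1 day, 6083 at 7 days and 8069 at 14 days (difference -0.39, adjusted p = 0.244). Slc30a1 read 407 and 462, then 296 and 341 (difference -0.37, adjusted p = 0.125), and Slc39a14 gave a difference of -0.39 (adjusted p = 0.0625). Over the same arrays 5 of 9 stress genes were called lower in the longer cultures, where 4.27% of all genes were, among them Slc7a11 by a difference of -2.94 and Srxn1 by one of -1.73.

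The remaining members of the 3 families were compared in the same fits. Of the other 10 ZIP genes none was called higher in hepatocytes in any comparison, while 1 was lower against Kupffer cells, 1 against LSEC and 3 against 1-day HSC. The shares of all genes called lower in hepatocytes were 13.7%, 12.5% and 12.3%. The 10 genes had median differences of -0.28, -0.39 and -0.45. Slc39a13, which encodes a ZIP transporter of the early secretory pathway, averaged 696 ± 94 in hepatocytes, 1773 ± 58.2 in Kupffer cells, 1283 ± 97.1 in LSEC (SD, n = 3 each) and 1958 ± 149 in 1-day HSC (SD, n = 2), and was lower in hepatocytes than in Kupffer cells by -1.26 and than in 1-day HSC by -1.39. Slc39a10, an importer of the plasma membrane, was lower in hepatocytes than in LSEC by -1.99 and than in 1-day HSC by -1.37. Slc39a6 was lower in hepatocytes than in 1-day HSC by -1.08, a call lost without hepatocyte replicate 3 (-0.89), after quantile normalization (-0.97) and with the median of all values as the added constant (-0.96).

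Of the other 8 ZnT genes, 6 passed the filter. Slc30a4, whose product loads zinc into vesicles, read 1055, 947 and 868 in hepatocytes, 67.9, 56.4 and 72.5 in Kupffer cells, 3423, 3283 and 3047 in LSEC and 1398 and 1563 in 1-day HSC. The 4 populations did not overlap. It was higher in LSEC than in each of the others, as were 2.35% of all genes, and lower in Kupffer cells than in each of the others, with a difference of Kupffer cells from LSEC of -4.49 (SE 0.089, adjusted p = 1.16e-12). Slc30a7, a ZnT of the Golgi, was lower in hepatocytes than in Kupffer cells by -1.18, and Slc30a6 was lower in Kupffer cells than in 1-day HSC by -1.34.

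Of the other 2 metallothionein genes, Mt4 was higher in hepatocytes, averaging 774 ± 153 against 117 ± 5.09 in Kupffer cells and 101 ± 7.69 in LSEC (SD, n = 3 each), and by 2.09 over Kupffer cells, the nearest population (SE 0.112). It passed the filter through hepatocyte arrays alone and so had to differ. Mt4 is known from stratified epithelia, and whether its probe set shares signal with Mt1 or Mt2 was not tested. Mt3, known from brain, averaged 639 ± 23.2 in hepatocytes and 529 ± 17.5 in Kupffer cells (SD, n = 3 each) and was not called in any comparison.

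**Figure D4:**
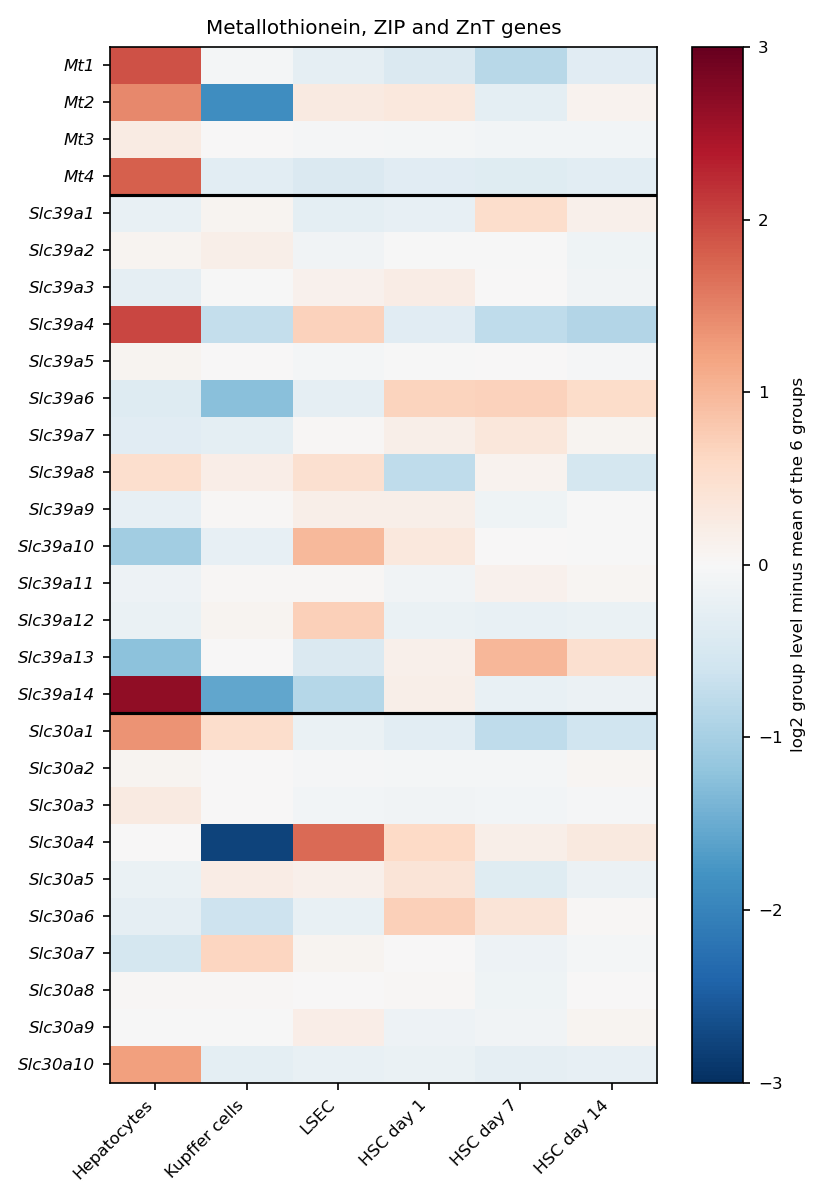
Group level of 4 metallothionein, 14 ZIP and 10 ZnT genes as log2 of the mean intensity plus a constant, minus the mean of the 6 groups for that gene (red above, blue below). The darkest red of the ZIP rows is Slc39a14 in hepatocytes, and the darkest blue of the whole map is Slc30a4 in Kupffer cells.

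The genes whose pattern over the 13 arrays was most like that of a member were taken by Pearson's r of log2 values, as a description across arrays that share their groups. For Slc30a10 these were Cfi, Dmgdh and A1cf (r = 0.998, 0.997 and 0.997) and for Slc39a14 Rbpms2, Hibadh and Fh1 (0.988, 0.984 and 0.983). For Mt1 they were Cryz, Erbb3 and Ripk4 (0.980, 0.977 and 0.977) and for Mt2 Ak4, Hacd2 and Cyp2j6 (0.973, 0.968 and 0.968). Mt1 and Mt2 correlated with each other at r = 0.604 over the same 13 arrays, below the r of 0.892 between Mt1 and Slc30a1 and that of 0.851 between Mt2 and Slc39a14.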

How the data were processed

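The deposited table holds 1 summarised intensity per probe set on a linear scale for each of 13 biotin-labelled Affymetrix arrays. Software is listed as Affymetrix Expression Console and MAS5 5.0, with no role for either, per the submitters' processing notes. Background correction, summary method and genome build are not given in the sources used here. Medians of the deposited intensity values ran from 216.5 to 232.9, and whether the authors scaled the arrays is not stated. The number of arrays limits the precision.

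Of the 25194 probe sets, 21181 carried 1 gene symbol, 1379 several and 2634 none. A gene was read from its single-symbol probe set with the highest mean. Genes above the median of all values (224.5) on at least 2 arrays of a fit were tested as log2(intensity + 82.7), the constant being the pooled 20th percentile. R 4.3.3 with limma 3.58.1 was used, two-sided, with Benjamini-Hochberg adjustment within each comparison over all genes tested. The populations were fitted on 11 arrays and 12081 genes (7 residual and 4.87 prior degrees of freedom), the cultures on 13 arrays and 12368 genes (8 and 4.47). Calls needed an adjusted p below 0.05 and a difference of at least 1. The fit was tested on simulated data. Alternatives were another constant, no filter, quantile normalization, the mean of a gene's probe sets, a replicate block, HSC arrays alone, and each array left out. The 9 genes and the gene lists were chosen with earlier results of these data known. Every one of the 9 is described. From the other lists a selection of genes was named, not always those with the largest differences.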

Additional observations from a re-analysis of the deposited data

How the results depend on the processing

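The counts of the 9 genes called were 5, 6 and 2 for hepatocytes against Kupffer cells, hepatocytes against LSEC and Kupffer cells against LSEC under every alternative run. They were 0 for the cultures under every alternative run. For hepatocytes against 1-day HSC the count was 6 to 7, and for Kupffer cells against 1-day HSC 2 to 3. For LSEC against 1-day HSC it was 3, but 0 with the median of all values as the added constant, where the 3 differences shrank to 0.80, 0.90 and -0.89, and it was 2 to 3 with single arrays left out. None of the differences that changed sign was past the call threshold. For LSEC against 1-day HSC they were Slc39a5 (0.0185) and Slc30a10 (0.0166) after quantile normalization. With single arrays left out they ran, for LSEC against 1-day HSC, between -0.1344 (without LSEC replicate 3) and 0.3038 for Mt1, between -0.3889 and 0.0806 (without LSEC replicate 1) for Mt2, between -0.0727 and 0.0111 for Slc39a5 and between -0.0996 and 0.0348 for Slc30a10. The range was -0.0529 to 0.0642 for Slc39a8 in hepatocytes against LSEC and -0.0018 to 0.082 for Slc39a5 in Kupffer cells against 1-day HSC. In the cultures it was -0.3985 to 0.0882 for Mt1, -0.0406 to 0.0432 for Slc39a5 and -0.1197 to 0.0146 for Slc30a10. The causes were not tested. Arrays with the same replicate number did not deviate together: of 15 such pairs 2 had r over 0.1. With the number as a replicate block, Mt2 in hepatocytes against 1-day HSC was 0.99, Slc39a4 in LSEC against 1-day HSC 0.99 and Slc39a8 in Kupffer cells against 1-day HSC 1.00, so the counts were 6, 2 and 3. No paired analysis was possible for the cultures because the 7-day and 14-day arrays carry no replicate number. The fit on the 9 freshly sorted arrays alone, chosen after seeing the data, gave 5, 6 and 2. Values near the median of all values, as for Slc39a5 and, outside hepatocytes, Slc30a10, leave small differences unresolved.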

Other observations

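Genes that handle copper, which metallothioneins also bind, differed between the populations in both directions. Of 8 copper handling genes tested, 3 were called higher in hepatocytes than in each of the other populations: Atox1, the cytosolic copper chaperone, Ccs, the chaperone of superoxide dismutase, and Cp, the copper oxidase of plasma. Over all genes 6.80% were. Atox1 read 2579, 2526 and 2280.2 in hepatocytes, 1146, 989.7 and 927 in Kupffer cells, 767, 776 and 532 in LSEC and 445 and 462 in 1-day HSC, so that no population overlapped with the next. Its difference was 1.21 from Kupffer cells (limma, adjusted p = 2.33e-06), the nearest. Atp7a, a copper-exporting ATPase, ran the other way, with 1036, 956 and 674 in hepatocytes, 2398, 2333 and 2476 in Kupffer cells and 2715, 2636 and 2326 in LSEC. It was lower in hepatocytes than in Kupffer cells by a difference of -1.37 and than in LSEC by one of -1.46 (limma, adjusted p = 6.94e-07 and 4.96e-07).

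Of 6 manganese handling genes, 1 was called higher in Kupffer cells than in each of the other populations, beside 6.53% of all genes. It was Slc40a1, the exporter ferroportin, with 742 ± 156 in hepatocytes, 12880 ± 355 in Kupffer cells and 1317 ± 151 in LSEC (SD, n = 3 each). In 1-day HSC it averaged 1541 ± 491 (SD, n = 2). Arg1 was called higher in hepatocytes than in each of the others, by 4.23 over 1-day HSC, the nearest, beside 6.80% of all genes. Manganese itself was not measured. In longer HSC culture Slc40a1 read 245 at 7 days and 202 at 14 days, a difference of -2.38 (limma, adjusted p = 1.86e-06). There 2 of the 6 genes were called lower, beside 4.27% of all genes. Kupffer cell and LSEC markers were present on the 1-day HSC arrays, and their part in this difference was not tested.

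Of 4 zinc enzyme genes tested, Adh1 and Car3 were called higher in hepatocytes against Kupffer cells, LSEC and 1-day HSC alike, beside 6.80% of all genes. Both also read well above LSEC on the 1-day HSC arrays, Car3 at 1317 and 777 in 1-day HSC and Adh1 at 1220.03 and 415, beside the hepatocyte markers on the same arrays, whose part was not tested.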
